A study of Mus musculus with 6 samples.

Results

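The genes described here are 9 genes of radial glia and of regional identity in the mouse lateral ganglionic eminence (LGE): the patterning factors Gsx1 and Gsx2, and Nes, Vim, Fabp7, Slc1a3, Hopx, Tnc and Ptprz1. They were taken by gene symbol from a table of 29659 genes, and each symbol matched 1 row. RNA was sequenced from dissected LGE of C57BL/6 embryos at embryonic day 16.5, with 3 libraries labelled control and 3 labelled Zfhx3-CKO. The controls had the genotype Dlx5/6-Cre and the mutants Dlx5/6-Cre; Zfhx3F/F, so Cre was present in both groups. Zfhx3 encodes a large transcription factor with zinc fingers and homeodomains. The Dlx5/6 driver is known to act in cells of the subventricular zone and in postmitotic neurons of the ganglionic eminences, after the radial glia stage. The labels do not say whether a library came from 1 embryo or from pooled tissue, so the p-values measure only how far these libraries scatter, which could be technical.

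Radial glia are the stem cells of the embryonic brain. Their cell bodies line the ventricle, a long process reaches towards the surface, and their divisions give intermediate progenitors, which divide again in the subventricular zone and become neurons. In the LGE the homeodomain factors Gsx2 and Gsx1 are made in these progenitors. Gsx2 sets the identity of the region and holds cells in the progenitor state, whereas Gsx1 is known to favour their move towards neurogenesis. The other members are parts of the radial glia cell itself: intermediate filaments (Nes, Vim), a fatty acid carrier (Fabp7), a glutamate transporter (Slc1a3), a small homeodomain protein that does not bind DNA (Hopx), an extracellular matrix glycoprotein (Tnc) and a receptor phosphatase (Ptprz1).

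The library totals lay between 15938590 and 20311799 counts. Zfhx3 itself was counted 2240, 2137 and 1686 times in controls 1, 2 and 3 and 2016, 1650 and 1939 times in the mutants. In CPM, the counts scaled by library size, that is 123 ± 19.3 against 95.2 ± 6.77 (SD, n = 3 each), with a log2 ratio of mutant to control (log2FC) of -0.37 and an adjusted p of 0.0910 in edgeR's quasi-likelihood test. The labels do not name the floxed exons, so counts over the whole gene are a limited check of the labels. The libraries are called control 1 to 3 and mutant 1 to 3 from here on, by the replicate number in the labels. Xist was counted 5 to 9 times in the controls and 55947 to 59631 times in the mutants, and 4 Y-linked genes together 4939 to 5451 and 5 to 8 times. Sex and genotype therefore cannot be told apart in any value below. Markers of cortical excitatory neurons stood higher in mutants 1 and 3, where their summed level was 207.8 and 294.8 CPM against 55.0 to 58.6 CPM in the controls and 54.0 CPM in mutant 2.

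The 4 sequences shown here belong to the 4 members whose levels in both mutants 1 and 2 lay most above the control mean. Each is the 250 bases before the RefSeq gene start on GRCm38.p6, written 5′ to 3′ on the gene's strand, which is the plus strand for all 4, and capitals mark the letters TATAAA, the core of a TATA box.
Gsx1 (chr5:147188446-147188695): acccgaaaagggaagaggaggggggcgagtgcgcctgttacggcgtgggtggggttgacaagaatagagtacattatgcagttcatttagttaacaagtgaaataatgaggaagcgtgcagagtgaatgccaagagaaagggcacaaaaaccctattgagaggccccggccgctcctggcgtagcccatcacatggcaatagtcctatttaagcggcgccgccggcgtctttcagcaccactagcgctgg
Gsx2 (chr5:75075351-75075600): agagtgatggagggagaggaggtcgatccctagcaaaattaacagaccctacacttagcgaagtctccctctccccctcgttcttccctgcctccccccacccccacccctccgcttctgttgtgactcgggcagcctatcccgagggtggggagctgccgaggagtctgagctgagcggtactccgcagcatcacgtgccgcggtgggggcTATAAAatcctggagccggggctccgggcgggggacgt
Nes (chr3:87970843-87971092): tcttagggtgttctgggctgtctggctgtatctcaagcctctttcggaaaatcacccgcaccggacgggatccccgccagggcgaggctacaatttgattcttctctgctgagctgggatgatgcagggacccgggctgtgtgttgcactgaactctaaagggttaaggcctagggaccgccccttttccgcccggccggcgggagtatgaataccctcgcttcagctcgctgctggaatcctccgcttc
Vim (chr2:13574061-13574310): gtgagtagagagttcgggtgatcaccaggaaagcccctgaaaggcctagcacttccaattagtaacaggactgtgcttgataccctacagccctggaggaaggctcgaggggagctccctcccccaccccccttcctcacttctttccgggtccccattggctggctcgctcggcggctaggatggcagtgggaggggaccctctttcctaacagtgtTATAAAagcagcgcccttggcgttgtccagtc
TATAAA began 38 bases before the RefSeq start of Gsx2 and 32 bases before that of Vim, and these letters were found in neither the Gsx1 nor the Nes window. The Vim window lies wholly inside the gene model used for the counts (13573927 to 13582826). The Nes window, which ends at 87971092, also runs past the counted start at 87971078. Windows of this length held TATAAA on either strand in 12.4% of 32851 RefSeq entries. Other letters searched on both strands were TAATTA (a homeodomain core, in 4.84% of all windows), TGGGAA (an RBPJ core, 21.6%), CAGCTG (an E-box, 13.0%) and ACAAAG (a Sox core, 16.5%). None of those 4 was in the 4 windows shown. TGGGAA was found before Fabp7, where it began 249 bases upstream on the opposite strand, and in both windows listed for Tnc. These matches describe the letters only.

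None of the 8 members that could be tested passed at an adjusted p of 0.05 in edgeR's quasi-likelihood test, where 7.36% of the 16551 tested genes passed. The unadjusted p was under 0.05 for 2 of them, Nes and Gsx2, and for 25.6% of all tested genes. DESeq2 called 1, Nes, and 10% of the genes to which it gave an adjusted p. Limma-trend on log2(FPKM + 1) called 0 members and 6.74% of its genes. With no low-count filter, edgeR called 1 member, Nes, and 6.27% of all genes. The authors' deposited table likewise has 1 member with an adjusted p under 0.05, Nes at 0.0391, where 11.7% of the genes with such a value in the authors' deposited table are under 0.05. In no tested member did all mutants lie on one side of all control libraries, where 15.5% of tested genes were wholly higher and 15.9% wholly lower. Mutants 1 and 2 stood high for Gsx2, Nes and Vim, and mutant 3 did not.

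**Figure D1:**
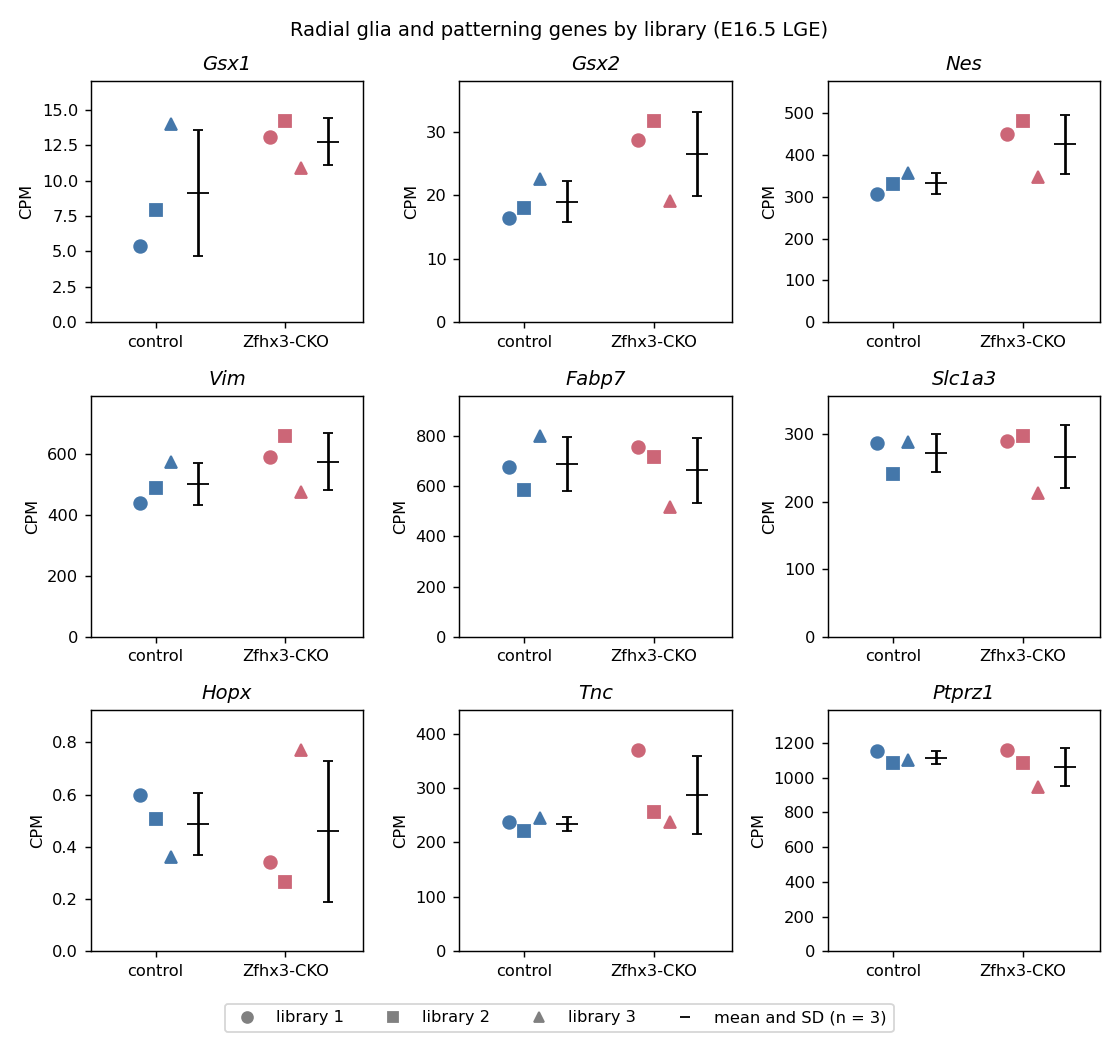
Level of each of the 9 genes in CPM (vertical axis, from 0) in every library, with controls in blue, Zfhx3-CKO in red, a symbol for each library number, and black bars for the mean and SD of 3 libraries. For Gsx2, Nes and Vim, mutants 1 and 2 lie above every control and mutant 3 among the controls, and the groups overlap in every panel.

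The patterning factors came first in size of difference. Gsx2 (ENSMUSG00000035946, chromosome 5, 75075601 to 75077893, GRCm38, plus strand) stood at 16.5, 17.9 and 22.6 CPM in controls 1, 2 and 3 and at 28.7, 31.7 and 19.0 CPM in the mutants. Mutants 1 and 2 lay above all controls, and mutant 3 lay below control 3. The means were 19.0 ± 3.21 and 26.5 ± 6.62 CPM (SD, n = 3), with a log2FC of 0.48 (SE 0.20, 95% interval 0.02 to 0.93) and an edgeR adjusted p of 0.177. Without mutant 3 the log2FC was 0.67 and Gsx2 passed (edgeR adjusted p 0.0196). Mutant 3 is the lowest mutant for Gsx2, so leaving it out raises the difference. In that fit 1082 of 16735 tested genes were higher and 1014 lower, against 640 and 578 of 16551 with all 6 libraries. Over the 6 fits that each left out a library, the adjusted p of Gsx2 lay between 0.0196 and 0.417.

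Gsx1 (ENSMUSG00000053129, chromosome 5, 147188696 to 147190947, plus strand) was less abundant and more scattered. Its levels were 5.38, 7.95 and 14.0 CPM in the controls and 13.1, 14.2 and 10.9 CPM in the mutants. Control 3 lay within the range of the mutants, while controls 1 and 2 lay below all of them. The coefficient of variation was 48.6% in the controls and 13.1% in the mutants. The log2FC of 0.48 (SE 0.30, 95% interval -0.21 to 1.17) did not pass (edgeR adjusted p 0.354). It was 0.93 without control 3 (adjusted p 0.0645) and 0.22 without control 1 (adjusted p 0.701), the ends of the range over the 6 fits that each left out a library. Per length, in FPKM (fragments scaled by gene length and library size), Gsx2 stood above Gsx1 in every library, by a ratio of 1.72 to 3.27 in the controls and 1.86 to 2.38 in the mutants. The ratio was lowest in control 3, and the groups overlapped.

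Nes encodes nestin, the intermediate filament protein used as a general label of neural stem cells. Nes (ENSMUSG00000004891, chromosome 3, 87971078 to 87980451, plus strand) stood at 307, 331 and 357 CPM in controls 1 to 3, against 451, 481 and 346 CPM in mutants 1 to 3. As for Gsx2, the first and the second mutant library lay above all controls and the third did not. The means were 332 ± 25.1 and 426 ± 70.5 CPM (SD, n = 3), a log2FC of 0.36 (SE 0.12, 95% interval 0.08 to 0.64; edgeR adjusted p 0.107). Nes passed without mutant 3 (log2FC 0.49, adjusted p 0.00660), with DESeq2 (adjusted p 0.0434) and in edgeR when no low-count filter was applied (adjusted p 0.0263). Mutant 3 is the lowest mutant for Nes too, so leaving it out raises the difference. Nes did not pass without any 1 of the other 5 libraries, where the adjusted p reached 0.298 (without control 1), nor with limma-trend (0.158).

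Vim encodes vimentin, the filament partner of nestin, which vessels, fibroblasts and microglia also make. Vim (ENSMUSG00000026728, chromosome 2, 13573927 to 13582826, plus strand) stood at 439, 490 and 576 CPM in controls 1 to 3, against 592, 661 and 476 CPM in mutants 1 to 3. Its highest value was in mutant 2, and mutant 3 lay below the second and the third control. The log2FC was 0.20 (SE 0.13, 95% interval -0.11 to 0.51; edgeR adjusted p 0.388). It was 0.09 without mutant 2, 0.12 without control 1, 0.31 without control 3 and 0.32 without mutant 3, and passed in none of these fits. The summed level of 8 meningeal fibroblast markers was 83.3 CPM in mutant 2 and 25.6 to 35.6 CPM in the other libraries, with Col3a1 at 25.2 against 4.02 to 6.94 CPM. Of that list, Lum was at 0 in 3 of the 6 libraries (control 1, mutant 1 and mutant 3) and at 1.17 CPM in mutant 2. The collagen genes Col1a1 (13.45 CPM) and Col1a2 (21.45 CPM), Dcn and Slc22a6 were likewise highest in mutant 2. The rest of the list did not peak there: Foxc1 was highest in mutant 3 (5.79 CPM) and Ogn in control 3 (13.29 CPM). The summed level of 6 erythroid markers was 2555 CPM in mutant 2 and 706 to 1081 CPM in the other libraries. The part of such cells in the levels of Gsx2, Nes and Vim was not tested.

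Fabp7, the brain fatty acid-binding protein gene, and Slc1a3, which encodes the glutamate transporter GLAST, are radial glia genes that astrocytes keep. Fabp7 (ENSMUSG00000019874, chromosome 10, 57784881 to 57788450, plus strand) was measured at 678, 586 and 802 CPM in controls 1 to 3, against 757, 716 and 518 CPM in mutants 1 to 3. The lowest value was that of mutant 3 and the highest that of control 3. The log2FC was -0.05 (SE 0.16, 95% interval -0.41 to 0.30; edgeR adjusted p 0.867). Slc1a3 (ENSMUSG00000005360, chromosome 15, 8634124 to 8710764, minus strand) stood at 287, 240.3 and 289 CPM in controls 1 to 3, against 289, 298 and 213 CPM in mutants 1 to 3, with mutant 3 again the lowest. Its log2FC was -0.03 (SE 0.13, 95% interval -0.33 to 0.27; edgeR adjusted p 0.915). Both intervals span 0. In bulk tissue, fewer cells of a type and less RNA per cell cannot be told apart. A gene model on the same strand, Gm37310, overlaps Slc1a3.

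Hopx marks quiescent or outer radial glia and later astrocytes in other settings. Hopx (ENSMUSG00000059325, chromosome 5, 77086988 to 77115121, minus strand) was barely detected here, with 10, 8 and 6 counts in the controls and 7, 5 and 15 in the mutants. It was left out of the test by the low-count filter. An antisense gene, Hopxos, overlaps it, and the library kit does not mark strand, so even these counts cannot be assigned to Hopx alone. The other 8 members passed the filter.

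Tnc encodes tenascin-C, a matrix protein of the germinal zone, and Ptprz1 a receptor phosphatase on radial glia and oligodendrocyte precursors that binds tenascins and the growth factor pleiotrophin. Tnc (ENSMUSG00000028364, chromosome 4, 63959785 to 64047015, minus strand) was measured at 237, 220.3 and 245 CPM in controls 1 to 3, against 369, 257 and 237 CPM in mutants 1 to 3. The difference between the means rested on mutant 1, since mutant 2 was just above the controls and mutant 3 among them. The log2FC was 0.30 (SE 0.15, 95% interval -0.05 to 0.64; edgeR adjusted p 0.261), and 0.08 without mutant 1. A processed transcript on the other strand, 8030451A03Rik, overlaps the gene.

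Ptprz1 (ENSMUSG00000068748, chromosome 6, 22875502 to 23052916, plus strand) had the most even levels of the 9, at 1155, 1086 and 1102 CPM in the controls and 1156, 1084 and 943 CPM in the mutants. Mutant 3 was again the lowest. The log2FC was -0.07 (SE 0.08, 95% interval -0.26 to 0.12; edgeR adjusted p 0.640). Its coefficient of variation was 3.22% in the controls, the smallest among the members.

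**Figure D2:**
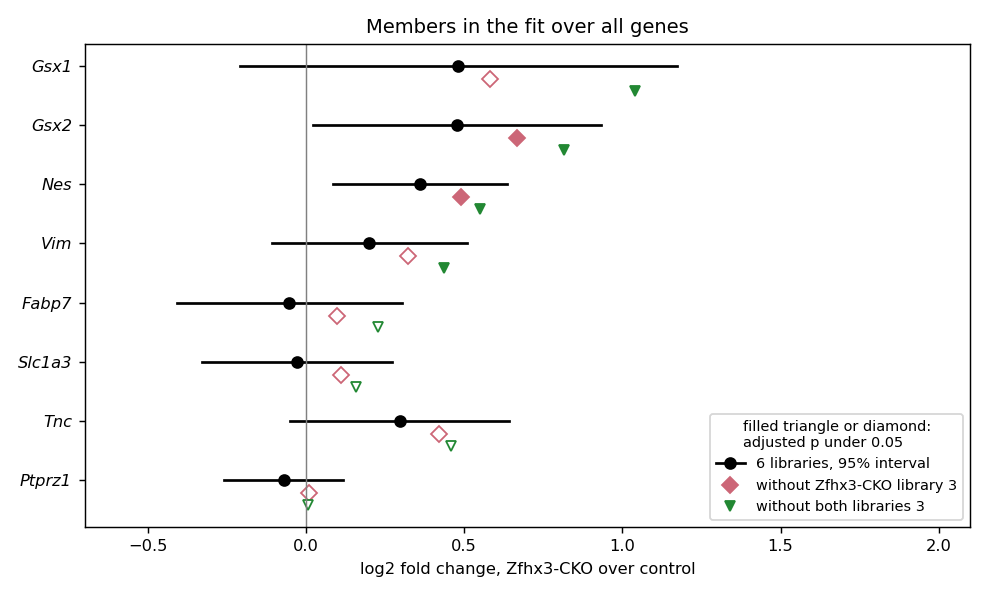
Fitted log2FC, Zfhx3-CKO over control (horizontal axis), of the 8 tested members, with black points and 95% intervals for all 6 libraries, diamonds for the fit without mutant 3 and triangles for the fit without both libraries numbered 3; filled diamonds and triangles have an adjusted p under 0.05. Gsx2 at 0.67 and Nes at 0.49 have filled diamonds, and Gsx1, Gsx2, Nes and Vim have filled triangles. For Gsx1, Gsx2, Nes and Vim, mutant 3 is the lowest mutant and control 3 the highest control. Leaving them out therefore raises the log2FC of these genes, and the filled symbols are no support for a call.

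Expressed per length, the order of the members in the controls ran over more than 3 orders of magnitude. Fabp7 led at 551 ± 90.2 FPKM (SD, n = 3), followed by Vim at 106 ± 15.1, Ptprz1 at 78.2 ± 2.58 and Nes at 51.7 ± 4.14 FPKM. Slc1a3 at 31.9 ± 3.39 and Tnc at 30.1 ± 1.79 FPKM overlapped, so their order is not fixed. Gsx2 at 11.4 ± 1.997 and Gsx1 at 5.15 ± 2.53 FPKM did not overlap, and Hopx stood at 0.321 ± 0.0781 FPKM. In the Zfhx3-CKO libraries Ptprz1 (65.6 to 81.5 FPKM) and Nes (53.5 to 74.6 FPKM) overlapped as well, although Ptprz1 was the higher of the pair within each library.

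Ratios between members within a library do not depend on its total. Of the 28 pairs of tested members, 9 (32.1%) had a log2 ratio that did not overlap between the groups, and 30.8% of all pairs of tested genes did the same, so the count is near the background. The pairs included Nes against Fabp7. The log2 ratio of Nes to Fabp7 in CPM was -1.14, -0.82 and -1.17 in the controls and -0.75, -0.57 and -0.58 in the mutants. Mutant 3 lay with the other mutants here, which the choice of a pair without overlap fixes in advance. Nes against Slc1a3 (0.29 ± 0.19 and 0.68 ± 0.03, SD, n = 3) and Gsx2 against Fabp7 (-5.17 ± 0.17 and -4.66 ± 0.14) also did not overlap. These pairs were singled out after their values were seen and have no test.

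Relative to the control mean, the median log2 CPM of the 7 radial glia members other than the Gsx genes was 0.02, -0.04 and 0.09 in controls 1, 2 and 3, and 0.15, 0.13 and -0.07 in the mutants. Over 37 other radial glia genes the medians were -0.04, -0.07 and 0.15 in the controls, and 0.19, 0.17 and -0.02 in the mutants. Mutant 3 was the lowest of the mutants in both. The median of 10 neuron markers was 0.06, 0.03 and -0.09 in controls 1 to 3. It was -0.29 and -0.40 in mutants 1 and 2 and -0.07 in mutant 3. Of these 10 genes 2 had a positive log2FC. Rbfox3 was among them, higher in every mutant than in every control, but did not pass (log2FC 0.80, edgeR adjusted p 0.0794).

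Markers of other cells varied between the same libraries. In mutant 3 the median stood at 2.05 for cortical excitatory neuron markers, 1.13 for medial ganglionic eminence markers, 0.60 for endothelial and pericyte markers and -0.46 for microglia markers (log2 against the control mean). The cortical median was 1.77 in mutant 1 and 0.09 in mutant 2. Summed over its 9 genes, the microglia list reached 479 CPM in control 3 and 241 CPM in mutant 3, against 323 to 374 CPM in the other libraries. Astrocyte markers gave no common picture: their sum was 499 to 781 CPM in the controls and 670 to 884 CPM in the mutants, most of it Apoe and Aldh1l1, and S100b, Gjb6 and Agt were each at 0 in at least 1 library. The part of these cells in the members' levels was not tested.

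**Figure D3:**
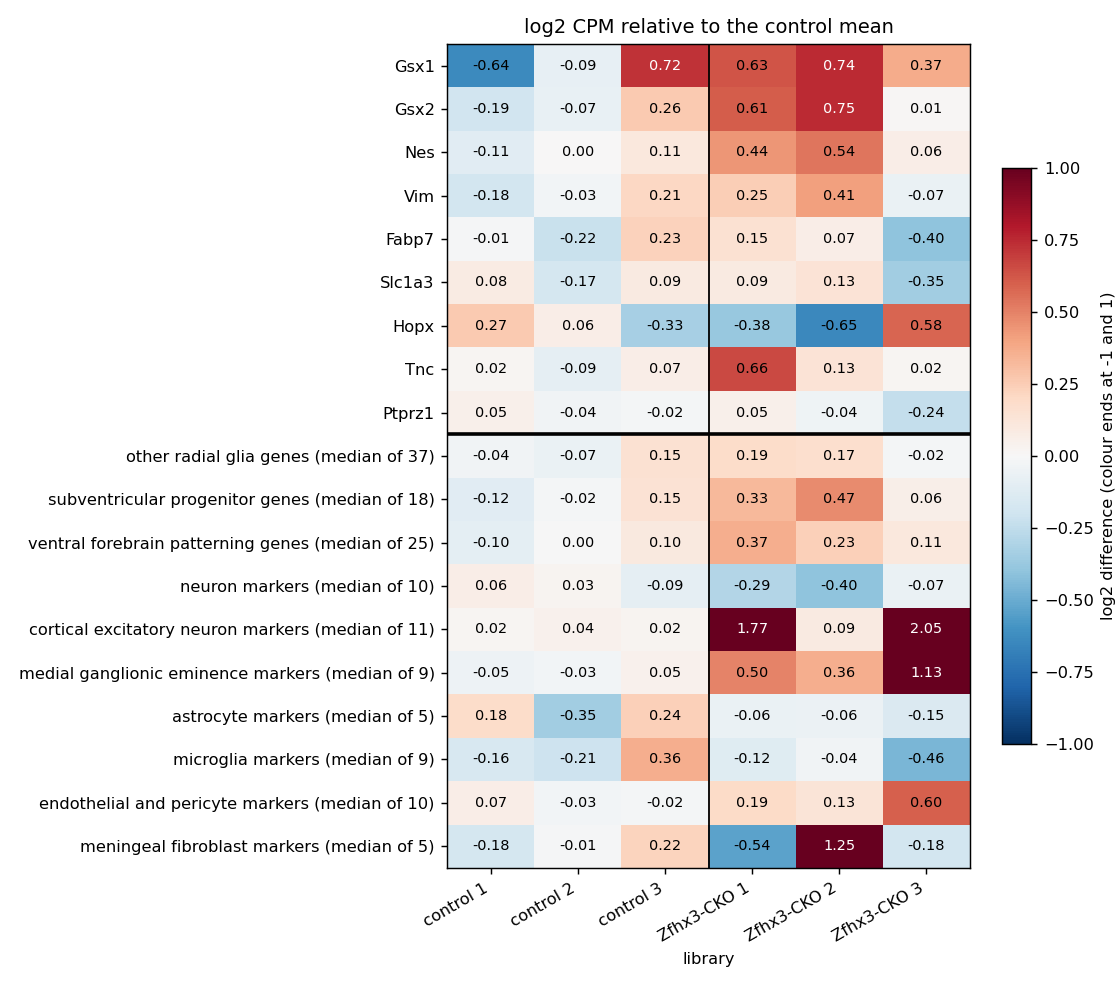
Log2 CPM relative to the control mean for the 9 genes (above the line) and the median of each marker or pathway list (below it) in the 6 libraries (columns); red is higher and blue lower, and colours end at -1 and 1. Gsx1 spans -0.64 to 0.72 within the controls alone, and the cortical excitatory median is 1.77 and 2.05 in mutants 1 and 3.

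Likeness of pattern was measured as the root mean square difference between profiles of log2 CPM relative to the control mean over the 6 libraries, among 11064 named genes of at least 5 CPM. The genes nearest to Gsx2 were Iscu (0.0757), Dbi (0.0761) and Ccnf (0.0778). Dbi, which encodes the acyl-CoA-binding protein and is abundant in radial glia, stood at 159, 154 and 199 CPM in the controls and 236, 273 and 175 CPM in the mutants. Mutants 1 and 2 again lay above all controls and mutant 3 below control 3, which the choice by likeness to Gsx2 favours. Nes ranked 46 of 11064 against Gsx2 (0.134), Vim 306 and Ptprz1 5365. Nearest to Gsx1 were Ppp1r35 (0.160), Btbd17 (0.202) and Znhit2 (0.220), and Gsx2 ranked 46 (0.300). Nearest to the median profile of the 7 radial glia members were Cinp (0.0274), Tmem55a (0.0298) and Aamp (0.0306), among 11065 genes. A flat profile has many near neighbours, and no more is read from these.

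The members were then set beside further genes of radial glia, regional patterning and the subventricular zone, in lists read from the same fit. Over all tested genes the median log2FC was 0.00, with 640 genes (3.87%) higher and 578 (3.49%) lower. Of the 37 other radial glia genes 3 rose, 1 fell and 33 did not pass, with a median of 0.11. Hes1, a Notch effector that keeps progenitors undifferentiated, rose (5.68, 6.81 and 6.05 against 13.0, 13.6 and 15.3 CPM, log2FC 1.18, edgeR adjusted p 0.00311). It was higher in all 3 mutant libraries, mutant 3 included. Id1, an inhibitor of bHLH factors, rose from 7.78 ± 1.61 to 14.1 ± 1.45 CPM (adjusted p 0.0244), and the receptor gene Notch1 rose (log2FC 0.48, adjusted p 0.0307). Lifr, the receptor for leukaemia inhibitory factor, fell from 19.3 ± 2.61 to 11.7 ± 1.16 CPM (log2FC -0.72, adjusted p 0.0209).

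Only Hes1 of these 4 kept its call in each fit without a single library. The calls of Lifr and Notch1 were lost without any 1 of controls 1, 2 and 3 or mutant 1, and that of Id1 without control 1, control 2 or mutant 1 (highest adjusted p 0.108, 0.133 and 0.112). Without mutant 3, 9 of the list rose. Without control 1, control 2 or mutant 1, 1 rose and 0 fell. The counts over all tested genes moved in the same fits, from 640 higher and 578 lower with all 6 libraries. They were 158 and 131 without control 1, 156 and 144 without control 2, and 415 and 311 without control 3. Without mutant 1 they were 221 and 180, and without mutant 3 they were 1082 and 1014.

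Of 25 tested ventral forebrain patterning genes 5 rose and 20 did not pass, with a median of 0.24. Six3, a homeodomain factor, rose from 107.4, 116.7 and 124.1 CPM to 179.1, 182.3 and 165.6 CPM (log2FC 0.60, SE 0.08, edgeR adjusted p 0.00395). All mutant libraries lay above all controls, mutant 3 included. The medial eminence factors Nkx2-1 and Nkx6-2 rose (log2FC 0.90 and 1.14, adjusted p 0.0276 and 0.0176), beside the medial eminence marker medians of 0.50, 0.36 and 1.13 in mutants 1, 2 and 3. Both are members of that marker list too. Olig2 falls outside the rule for named genes and was singled out after its value was seen (log2FC 0.50, adjusted p 0.0395). Pax6, whose domain borders that of Gsx2, was likewise singled out afterwards and did not pass (log2FC 0.11, adjusted p 0.607).

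Six3 kept its call without any single library. Nkx6-2 lost its call without control 1, control 2 or mutant 1, Nkx2-1 without any 1 of the 3 controls, and Olig2 without control 1, control 2, mutant 1 or mutant 2 (highest adjusted p 0.0979, 0.134 and 0.141). The count of risen genes was 2 without control 1 or 2, 3 without mutant 1 and 10 without mutant 3. The count over all tested genes moved the same way, from 640 to 158, 156, 221 and 1082 without control 1, control 2, mutant 1 and mutant 3.

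Of 18 subventricular progenitor genes 4 rose and 14 did not pass, with a median of 0.30 and positive values for 17, where 50.1% of all tested genes were positive. By library, the list median of log2 CPM against the control mean was -0.12, -0.02 and 0.15 in controls 1 to 3. It was 0.33, 0.47 and 0.06 in mutants 1 to 3, so mutant 3 lay among the controls. Dll3, a Notch ligand of differentiating progenitors, had values of 24.6, 27.8 and 34.2 CPM in the controls and 53.0, 67.4 and 52.8 CPM in the mutants (log2FC 1.00, edgeR adjusted p 0.00644). Mki67 and Top2a, which mark dividing cells, and Gadd45g, a gene of cells leaving the cycle, rose by log2FC values of 0.61, 0.34 and 0.68 (adjusted p 0.0124, 0.0477 and 0.0365). Only Dll3 of the 4 kept its call without any single library. Mki67 lost it without control 1 or mutant 1, Gadd45g also without control 2, and Top2a without any library but mutant 3 (highest adjusted p 0.0735, 0.148 and 0.177). The count was 1 without control 1 or mutant 1, 2 without control 2 and 10 without mutant 3. Over all tested genes, 158, 221, 156 and 1082 were higher without control 1, mutant 1, control 2 and mutant 3, against 640.

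Of 15 tested partners of Ptprz1 and of tenascins 1 rose and 14 did not pass, with a median of 0.04. Tnr, which encodes tenascin-R, the neuronal relative of tenascin-C, rose from 41.5, 37.5 and 34.1 CPM to 67.7, 69.3 and 80.4 CPM (log2FC 0.94, SE 0.10, edgeR adjusted p 0.00184). The groups lay far apart, and the call held without any single library, whereas Tnc itself did not pass. The Ptprz1 ligands midkine (Mdk) and pleiotrophin (Ptn) had log2FC values of 0.38 and -0.27, with groups that did not overlap, but neither passed (adjusted p 0.0722 and 0.108). Mdk passed without control 3 (adjusted p 0.0293). The integrin gene Itgb8 had a log2FC of -0.31 (adjusted p 0.134) and passed without mutant 2 (-0.45, adjusted p 0.0144). Without control 3, 2 of the list rose, and without mutant 2, 2 rose and 1 fell.

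Of 12 tested relatives of the members from the same gene families 2 fell and 10 did not pass, with a median of -0.19. Gfap, the filament gene of astrocytes, was measured at 5.56, 2.71 and 7.66 CPM in controls 1 to 3, against 1.13, 1.11 and 0.62 CPM in mutants 1 to 3 (log2FC -2.47, SE 0.42, edgeR adjusted p 0.0118). Nefl, the light neurofilament of neurons, fell from 21.3, 25.7 and 24.3 CPM to 8.48, 5.35 and 11.3 CPM (log2FC -1.51, adjusted p 0.00892). In both genes every mutant library lay below every control, while the filament members Nes and Vim had positive log2FC values that did not pass. Nefl lies within the coordinates of Nefm on the other strand, so its counts may not be those of Nefl alone. The filament genes Nefm and Ina, outside the rule for named genes, did not pass (log2FC 0.08 and -0.16, edgeR adjusted p 0.717 and 0.628). Synm, which encodes synemin, a partner of nestin and vimentin, and Slc1a4, a relative of Slc1a3, had log2FC values of 0.44 and -0.22 (adjusted p 0.121 and 0.0952). The call of Gfap was lost without control 1 or mutant 1 and that of Nefl without control 2 (highest adjusted p 0.0686 and 0.0587). In each of those 3 fits 1 relative fell, and without mutant 2, 3 fell and 1 rose. Over all tested genes, 131, 180 and 144 were lower without control 1, mutant 1 and control 2, against 578 with all 6 libraries. Gfap is also on the astrocyte marker list, whose median log2 CPM against the control mean was 0.18, -0.35 and 0.24 in the controls and -0.06, -0.06 and -0.15 in the mutants.

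**Figure D4:**
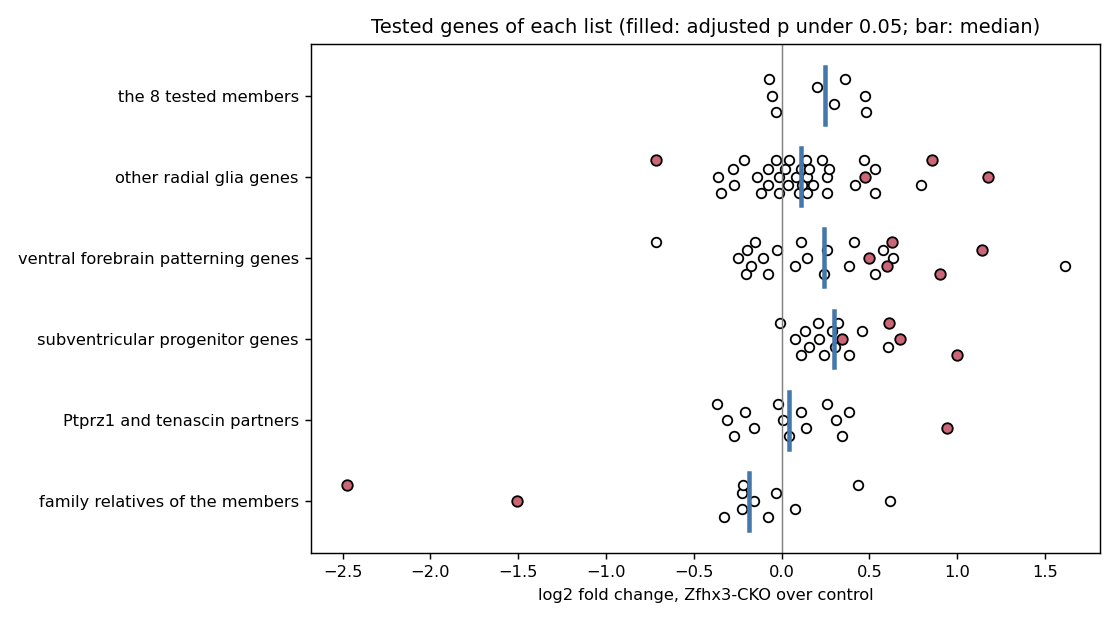
Log2FC, Zfhx3-CKO over control (horizontal axis), of every tested gene in 6 lists, where a point is 1 gene (vertical spread within a list is only for legibility), filled points have an adjusted p under 0.05 and the blue bar is the list median. None of the 8 tested members is filled, the subventricular median is 0.30, and the 2 filled relatives at the left are Gfap and Nefl.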

How the data were processed

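RNA was sequenced from 6 LGE libraries, 3 per group, made with an Illumina TruSeq kit per the labels' protocols. Tools listed in the submitters' processing notes are HISAT2, StringTie, edgeR and bcl2fastq (2.17.1.14), and the listed builds are mm10 and GRCm38.p4; no roles are given. The authors deposited whole-number counts per gene, not normalised, and FPKM, scaled by length and library, per the file headers. The authors' deposited table also gives log2 fold changes and p-values whose test its columns do not name. Short column names were tied to samples by group word and replicate number, and equalled the titled columns of a second deposited table. Counts were tested with edgeR 4.0.16 in R 4.3.3 (quasi-likelihood, TMM, filterByExpr with minimum count 10, 16551 genes kept, Benjamini-Hochberg at 0.05). CPM values are counts over TMM-scaled totals, and profiles of log2 CPM had a prior count of 2. Standard errors and 95% intervals came from the quasi-likelihood F. Alternatives used DESeq2 1.42.0 and limma 3.58.1. The script was tested on simulated data. Library pairs within a group differed by more than sampling noise (chi-square per gene 3.15 to 26.7, where noise gives about 1). The value of 26.7, for mutants 2 and 3, lay within the range of pairs between groups (24.7 to 34.1). Pairs of controls gave 3.15 to 8.87. The members, the gene lists and the alternatives were chosen with earlier results of these data known. Named genes are the 9 members, up to 4 genes per pathway list with the smallest p, defining markers, and the 3 genes nearest to Gsx1, Gsx2 and the median of the 7 radial glia members. Of the 10 marker lists, those of oligodendrocyte precursors (median log2 fold change 0.17) and choroid plexus and ependyma (-0.45) are not described further. Gene models overlapping the members came from GENCODE vM21 (GRCm38), whose coordinates equal those of the table for all 9, and promoter windows from RefSeq (GRCm38.p6), where all 9 matched. Some list genes are counted in their lists but not reported by name here.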

Additional observations from a re-analysis of the deposited data

How the results depend on the processing

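Leaving out both libraries numbered 3 is no support for a call, since they were picked because earlier results of these data set them apart. Control 3 is also the highest control, and mutant 3 the lowest mutant, for Gsx1, Gsx2, Nes and Vim. Leaving out mutant 3 alone, the lowest mutant for Gsx2 and Nes, is no support for their calls either. The count of members called higher was 0 with all 6 libraries in edgeR, and 1 with DESeq2 and with no low-count filter (Nes in both). It was 4 without both libraries numbered 3 (Gsx1, Gsx2, Nes and Vim), where 1379 of 16688 tested genes were higher and 1272 lower. Over the fits without a single library it was 0 to 2, with Gsx2 and Nes called without mutant 3, where 1082 of 16735 tested genes were higher and 1014 lower. Without mutants 1 and 3, mutant 2 is alone and is assumed to vary like the controls, so calls in that fit are no support. No member was called lower in any setting. The log2 fold changes of Gsx1, Gsx2, Nes, Vim and Tnc stayed positive in every setting; those of Fabp7, Slc1a3 and Ptprz1 changed sign in some, never past the threshold. Over all genes, 640 were higher and 578 lower; the counts were 1011 and 755 with DESeq2, 1075 and 786 with no low-count filter, 1379 and 1272 without both libraries numbered 3, and 156 to 1082 and 131 to 1014 without single libraries. Libraries that share a replicate number did not deviate together (correlation of same-numbered deviations -0.04, -0.08 and -0.25), and no same-numbered pair had a positive value. With the replicate number as a block, 176 genes were higher and 136 lower, 0 members passed (Nes at a log2 fold change of 0.35, adjusted p 0.219), and the counts of higher genes were 1 radial glia, 3 patterning and 2 subventricular, with 0 radial glia genes and 1 relative lower.

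Of other radial glia genes, 5 were higher and 2 lower with no filter, 6 higher without mutants 1 and 3, 13 higher without both libraries numbered 3, 1 to 9 higher and 0 to 2 lower without single libraries, and 2 higher and 0 lower with limma-trend on either FPKM pseudocount. Of patterning genes, 8 were higher and 1 lower with no filter, 1 lower with DESeq2, 11 and 12 higher without the library pairs in that order, 2 to 10 higher and 0 to 1 lower without single libraries, and 3 higher with limma-trend. Of subventricular genes, 7 were higher with no filter, 12 and 13 without the library pairs, 1 to 10 without single libraries, and 2 with limma-trend. Of partners, 2 were higher with DESeq2, with no filter and without both libraries numbered 3, 1 was lower without either pair, and 1 to 2 were higher and 0 to 1 lower without single libraries. Of relatives, 1 was lower with the strict filter and with limma-trend, where Gfap was left out by the filter and so not tested. Without single libraries, 1 to 3 relatives were lower and 0 to 1 higher. The cause of the other shifts was not tested. Hopx had 5 to 15 counts per library, and the size of difference detectable at that depth was not tested.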
